A study of Zea mays with 6 samples.

Results

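The terpene synthases of the maize root tip were examined as a family across 3 types of root with and without salt. Terpene synthases convert linear prenyl diphosphates into mono-, sesqui- or diterpenes. They were taken as the transcripts of the deposited table whose KEGG annotation names macrocarpene, germacrene, cadinene, caryophyllene, bisabolene, farnesene, linalool or myrcene, together with GRMZM2G028306. The rule found 13 transcripts of 12 genes among the 48312 transcripts of 43006 genes in the table. GRMZM2G028306 was selected on its reads in PR-salt and PR (named below), where 13 transcripts were called as higher with salt and its ratio ranked 1 among these. Values of that comparison are therefore a description of the members and carry no test.

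RNA came from root tips (1 cm) of the maize cultivar Chang 7-2. Primary roots (PR), crown roots (CR) and seminal roots (SR) stood for 24 h in Hoagland's solution, either with 100 mM NaCl (PR-salt, CR-salt, SR-salt) or without it. Plants were used at 3 days (PR), 7 days (SR) or 15 days (CR) from germination, and thus age cannot be told apart from root type. A library was made from 10 to 15 pooled roots, and 6 libraries were analysed, 1 per condition, although the labels speak of 3 biological replicates per root type. No difference between libraries has a replicate check, and a test on the reads of 2 libraries compares those libraries, not the conditions. Between 2.49 M and 2.66 M reads (M, 1e6) were counted per library. Replication licensing (MCM) transcripts, which mark the dividing cells of a root tip, took from 1198 to 1519 RPM (reads per 1e6 counted reads). B-type cyclins, which mark dividing cells too, took 62.6 to 114 RPM. High-affinity nitrate transporters, a root marker, took 89.7 to 302 RPM. Of the markers of green tissue, the small chain of Rubisco took 1.13 to 3.16 RPM. Light-harvesting proteins took 27.5 to 95.4 RPM, so the green tissue markers were not all near 0.

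In maize, (S)-beta-macrocarpene is made from farnesyl diphosphate by way of beta-bisabolene by the closely related enzymes TPS6 and TPS11. It is the precursor of the zealexins, acidic sesquiterpenoid phytoalexins that accumulate when fungi or insects attack maize tissue. Other members of the family make volatile sesquiterpenes. TPS23 forms (E)-beta-caryophyllene, a signal released by maize roots under insect feeding. Terpene synthases need divalent metal ions, and 12 of the 13 members carried a metal ion binding term in the deposited annotation.

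The members matched the macrocarpene synthase entry to very different degrees. The entry for (S)-beta-macrocarpene synthase (K15797) appeared in 12 of the 13 annotations, but as the first entry in 5. GRMZM2G028306_T01 and both transcripts of GRMZM2G127087 matched it with BLAST bit scores of 1058 to 1094. The other 9 members that carried the entry matched it with bit scores of 216 to 405, among them GRMZM2G010356 and GRMZM2G319445, which have it in first place. The 3 transcripts with the high scores are called macrocarpene synthase transcripts here, and the remaining 10 the other members. The 3 were also the members with a stress response term in the annotation. A RefSeq gene table (Zm-B73-REFERENCE-NAM-5.0) held 6 of the 12 genes by identifier. It lists GRMZM2G127087 under both tps6 and tps11, neighbouring genes with 1 pseudogene between them. It lists GRMZM2G038153 as TPS8, GRMZM2G465812 as TPS9, GRMZM2G127336 as tps23 and GRMZM2G010356 as TPS17 or ZmEDS, a eudesmanediol synthase of maize.

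The macrocarpene synthase transcripts were found in PR, and almost no reads of them were found in CR and SR. Summed over the 3 transcripts, PR gave 73 reads and PR-salt 382, while SR-salt gave 2 and the libraries CR, CR-salt and SR gave 0 each. The corresponding levels were 28.5 RPM (PR), 143 RPM (PR-salt) and 0.787 RPM (SR-salt). A library with 0 reads was taken to allow up to 3 reads, which is 1.15 to 1.20 RPM for these libraries. Against that floor the summed level of PR was at least 24.9-fold higher than that of CR and at least 23.7-fold higher than that of SR. The level of PR-salt was at least 121-fold higher than that of CR-salt. Such ratios to the floor leave out the counting error of PR and PR-salt, which exact lower 95% limits take in. On the log2 scale these limits were 4.30 (PR against CR), 4.23 (PR against SR) and 6.61 (PR-salt against CR-salt). Against the 2 reads of SR-salt the ratio of PR-salt was 182, or 7.51 on the log2 scale (95% interval 5.65 to 10.56). Intervals and floors cover counting error only, and in pooled tips fewer cells of a type and less RNA per cell cannot be told apart.

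**Figure D1:**
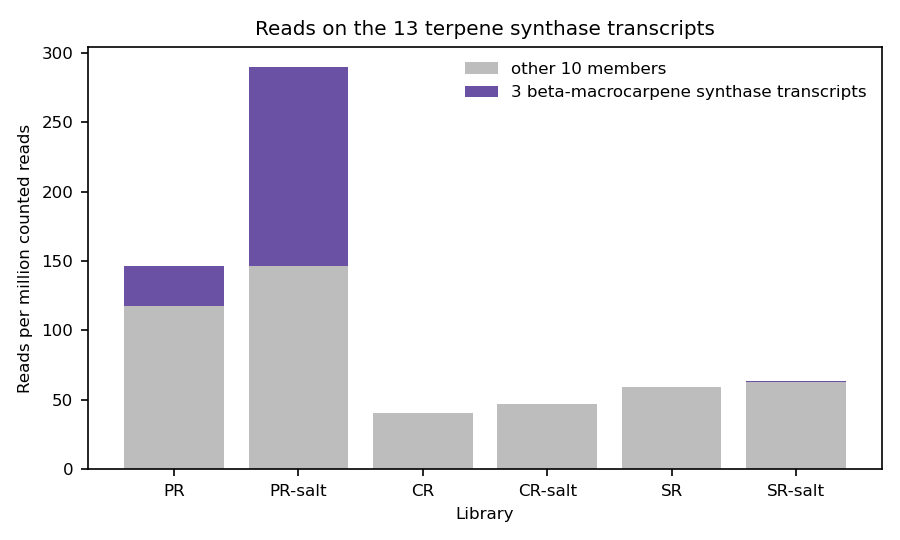
Reads per 1e6 counted reads (y axis) on the 13 terpene synthase transcripts in each of the 6 libraries (x axis), stacked as the 3 macrocarpene synthase transcripts and the other 10 members, with 1 library per bar. The macrocarpene synthase transcripts added 28.5 to the bar of PR and 143 to that of PR-salt, and at most 0.787 elsewhere.

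All 13 members together took 146 RPM in untreated PR and 290 RPM in PR-salt, beside 40.2 to 63.7 RPM in the CR and SR libraries. Of the members' reads, the macrocarpene synthase transcripts made up 19.5% without salt (95% Wilson interval 15.8% to 23.8%) and 49.5% with salt (46.0% to 53.0%) in the primary root. The reads of the other 10 members numbered 301 for PR and 390 for PR-salt, a 1.24-fold difference (log2 interval 0.09 to 0.54). GRMZM2G451187_T01 alone gave 83 and 143 of these reads. Of the 8 other members with reads in both libraries, 5 had a log2 ratio above 0 and 3 under 0, so the sum does not describe each member.

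GRMZM2G028306_T01 gave 31 reads in PR (RPKM, reads per kilobase and 1e6 counted reads, of 7.35) and 219 in PR-salt (RPKM 49.8). It gave 0 reads in CR, CR-salt and SR and 2 in SR-salt (RPKM 0.477). Both primary root libraries thus stood above the other 4, where 0 reads allowed an RPKM of up to 0.729 and the upper limit in SR-salt was 1.72. The difference with salt in the primary root was 6.78-fold, or 2.76 on the log2 scale (interval 2.22 to 3.35). Against the floor of 3 reads, the level of PR was at least 10.6-fold higher than that of CR and at least 10.1-fold higher than that of SR. With salt it was at least 69.4-fold higher than that of CR-salt and 104-fold that of SR-salt (log2 interval 4.84 to 9.76). The order of CR, CR-salt, SR and SR-salt among themselves was not detectable at this depth.

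GRMZM2G127087_T02, whose best match was the KEGG protein that RefSeq lists as tps6, gave 34 reads in PR, 123 in PR-salt and 0 in every CR and SR library. Its RPKM was 8.07 without and 28.0 with salt, a log2 ratio of 1.80 (1.24 to 2.39). GRMZM2G127087_T01 had another best match, the KEGG protein that GRMZM2G028306_T01 also matched best, and a coding length of 1698 against 1647 bases. GRMZM2G127087_T01 gave 8 reads in PR, 40 in PR-salt and again 0 in the other 4 libraries. Its log2 ratio was 2.26 (1.15 to 3.57), so that the intervals of the 3 transcripts overlapped. T01 held 19.0% of the reads of the gene without salt (Wilson interval 9.98% to 33.3%) and 24.5% with salt (18.6% to 31.7%), and a shift between the transcripts of GRMZM2G127087 was not detectable at this depth. Only uniquely aligned reads were counted, so these are shares of counted reads and not of the transcripts present. With both summed, GRMZM2G127087 went from 42 to 163 reads, a 3.73-fold difference.

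Differentially transcribed genes (DTGs) were called by the study's criteria, which are an exact Audic-Claverie test on the reads of 2 libraries with an FDR of 0.001 or less and a log2 ratio of 1 or more in size. In PR-salt against PR, 3 of the 13 members were up-regulated DTGs, all of them macrocarpene synthase transcripts, and 0 were down-regulated. Among all 40841 transcripts tested, 0.0318% were called as higher and 0.487% as lower in PR-salt. The rule used this comparison, so nothing is read from the count.

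Reads on the macrocarpene synthase transcripts were compared, by the share of the length they covered, with reads on transcripts of like length and read number (within 10%, outside the family). In PR-salt the 219 reads of GRMZM2G028306_T01 covered 50.4% of its 1650 bases, beside a median of 92.3% over 90 like transcripts, of which 12 were covered less. The 123 reads of GRMZM2G127087_T02 covered 68.2%, beside 82.9% over 99, and the 40 reads of GRMZM2G127087_T01 covered 12.8%, beside 55.1% over 118. In PR the difference was smaller, with 36.3% beside 48.1% for GRMZM2G028306_T01 and 42.9% beside 51.3% for GRMZM2G127087_T02. Coverage was not low in these transcripts alone. The 35 reads of GRMZM2G319445_T01 in PR-salt covered 38.6%, beside 55.8% over 127, while the 143 reads of GRMZM2G451187_T01 covered 91.9%, beside 90.1% over 94. The authors counted uniquely aligned reads, and the macrocarpene synthase transcripts match the same KEGG proteins closely. The level of each copy is uncertain for that reason, and the part of shared sequence in the low coverage was not tested.

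**Figure D2:**
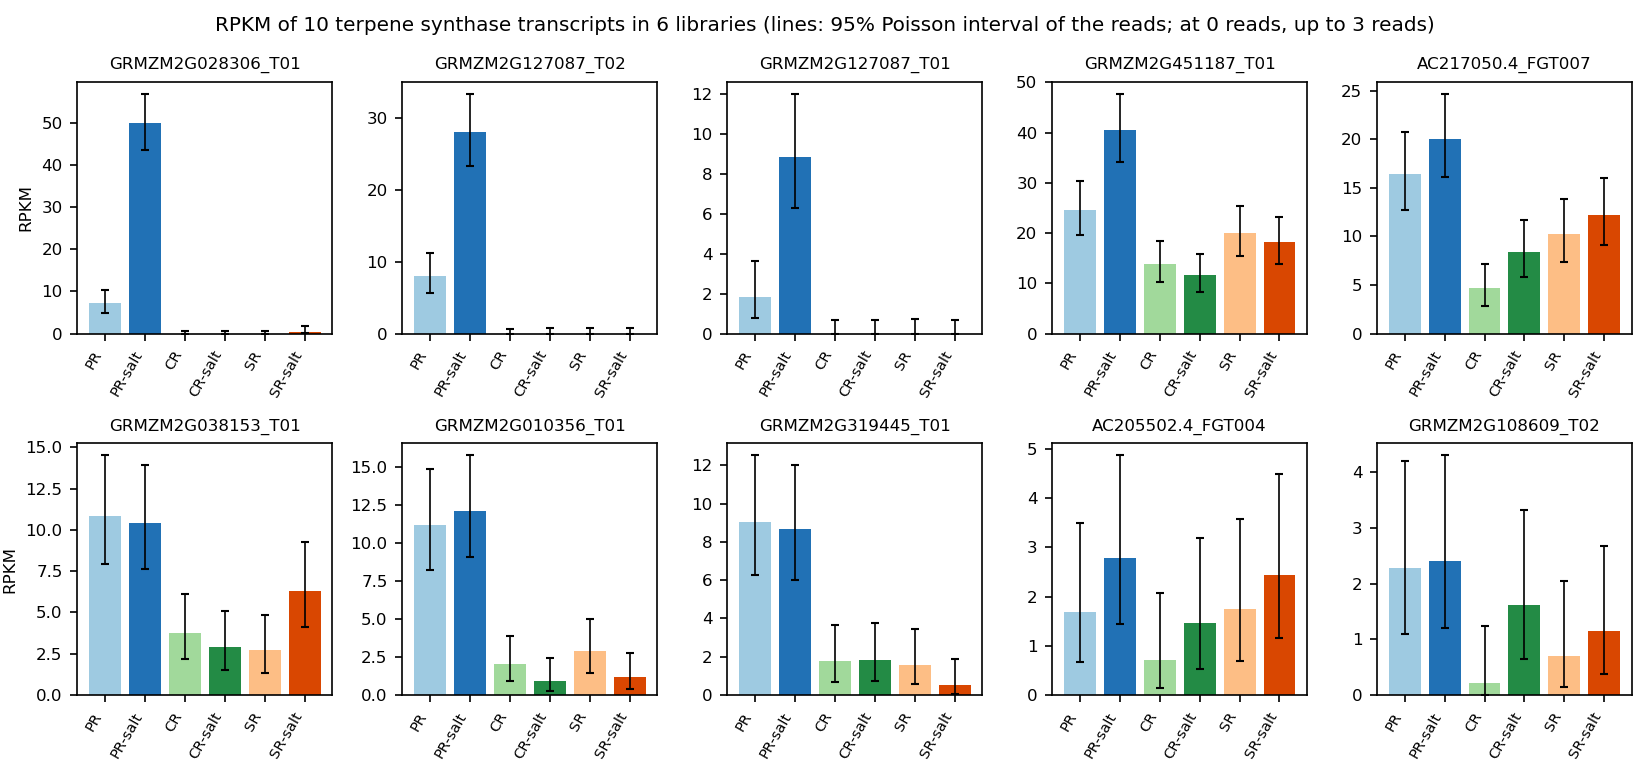
RPKM (y axis, its own scale in each panel) of the 10 members with at least 20 reads in total, in the 6 libraries (x axis), with the 95% Poisson interval of the reads as error bars (at 0 reads, a line up to the floor of 3 reads) and 1 library per bar. The macrocarpene synthase transcripts show bars for PR and PR-salt, and beyond these a single RPKM of 0.477 for GRMZM2G028306_T01 in SR-salt, while the other members have reads in every library.

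Of the other members, 7 had at least 20 reads in total, and all 7 were detected in every library. The first annotation entry was beta-farnesene synthase for 4 of the 10, valencene synthase for 3, macrocarpene synthase at a low score for 2 and myrcene/ocimene synthase for 1. The most abundant was GRMZM2G451187_T01, with beta-farnesene synthase first. Untreated, it gave 83 reads (PR), 48 (CR) and 66 (SR), and with salt 143 (PR-salt), 39 (CR-salt) and 61 (SR-salt). It was highest in PR-salt, with an RPKM of 40.6 against 24.5 in PR and 11.6 in CR-salt, the lowest library. Its log2 salt ratio was 0.73 for the primary root (0.33 to 1.13), which met neither the ratio threshold nor the FDR limit. For the crown and seminal root it was -0.25 (-0.90 to 0.39) and -0.14 (-0.67 to 0.38). Whether the first ratio differed from the others was not tested.

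AC217050.4_FGT007, with valencene synthase first, gave 69 (PR), 20 (CR) and 42 (SR) reads untreated and 88, 35 and 51 with salt. The reads were more numerous with salt in each root type, by log2 ratios of 0.29, 0.85 and 0.25, and none of these was called. GRMZM2G038153_T01 (TPS8) gave 45 (PR), 16 (CR) and 11 (SR) reads untreated and 45, 12 and 26 with salt. In the seminal root its log2 salt ratio was 1.21 (0.15 to 2.38), with an FDR of 0.274 in the exact Audic-Claverie test, and in the crown root it was -0.37 (-1.58 to 0.80).

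GRMZM2G010356_T01 (TPS17) gave 48 (PR), 9 (CR) and 12 (SR) reads untreated and 54, 4 and 5 with salt. GRMZM2G319445_T01 gave 35 (PR), 7 (CR) and 6 (SR) reads untreated and 35, 7 and 2 with salt. Both were thus higher in each primary root library than in any other, and close to level between PR and PR-salt, with log2 ratios of 0.11 (-0.48 to 0.70) and -0.06 (-0.78 to 0.66).

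AC205502.4_FGT004, with valencene synthase first, gave 3 to 12 reads per library, and its intervals included 0 in every comparison of 2 libraries. GRMZM2G108609_T02, annotated as a myrcene/ocimene synthase with a plastid stroma term, gave 10 (PR), 1 (CR) and 3 (SR) reads untreated and 11, 7 and 5 with salt. Its log2 salt ratio in the crown root was 2.85, with an interval of -0.11 to 8.35.

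The remaining 3 members had 13 reads or fewer in total. GRMZM2G127336_T01 (tps23, the caryophyllene synthase), singled out after its values were seen, gave 8 reads in CR-salt, 1 in CR, 2 in each primary root library and 0 in each seminal root library. It was not called in any comparison. GRMZM2G038340_T01 had 2 reads, both in PR, and GRMZM2G465812_T01 (TPS9) had 1 read, in SR.

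In CR-salt against CR and in SR-salt against SR, which the choice of members did not use, 0 of the 13 members were DTGs. Of all transcripts tested, 0.369% were called for the crown root and 0.392% for the seminal root. By the unadjusted exact Audic-Claverie test 3 members and 1 member, respectively, had a p under 0.05. The share of all transcripts under that limit was not computed, so nothing is read from these counts. Fisher's exact test also called 0 members for each. The members with at least 20 reads in the pair had a median log2 salt ratio of -0.25 for the crown root (3 members) and 0.25 for the seminal root (3 members), beside 0.02 and 0.03 over all such transcripts. The macrocarpene synthase transcripts had no salt ratio in the crown root, with 0 reads in both libraries. The salt ratios of CR and SR were called as different for 0 of the 6 members with at least 20 reads in these 4 libraries (exact conditional test, 0.195% of all transcripts called). An unadjusted p under 0.05 was found for 1, GRMZM2G038153_T01, with a difference of -1.48 on the log2 scale for CR minus SR (FDR 0.522 in the exact conditional test). The share of all transcripts with such a p was not computed here either.

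**Figure D3:**
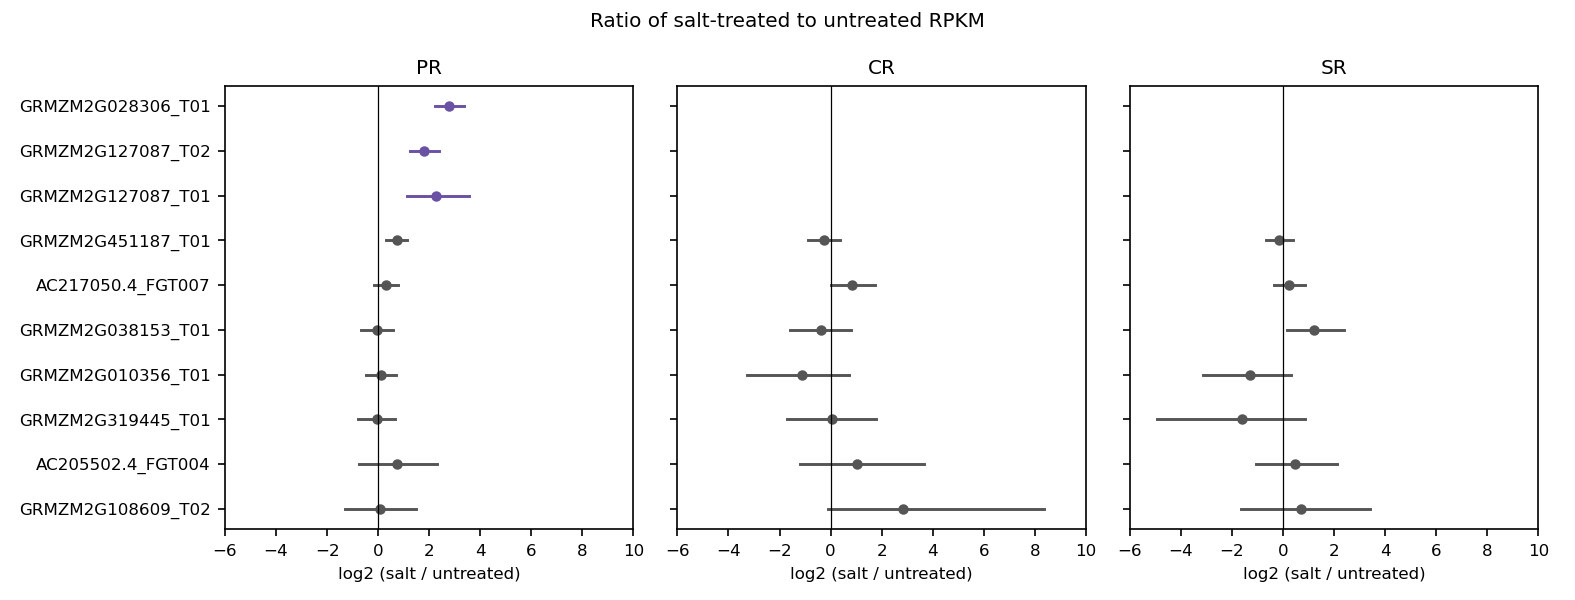
Log2 ratio of salt-treated to untreated RPKM (x axis) for the 10 members with at least 20 reads in total (y axis) in PR, CR and SR, with exact 95% intervals of the reads as lines and macrocarpene synthase transcripts in purple. No point is drawn where a library had 0 reads, and the 3 purple points, at 1.80 to 2.76 in PR, lie farther from 0 than the other members' points in PR.

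Between root types, members were called as higher in the primary root and in no case as lower. In PR against CR, 5 of the 13 were called as higher in PR and 0 as lower, where 1.29% of all transcripts were called as higher and 0.772% as lower. The 5 were GRMZM2G028306_T01, GRMZM2G127087_T02, AC217050.4_FGT007, GRMZM2G010356_T01 and GRMZM2G319445_T01. In PR against SR, 5 were called as higher and 0 as lower (0.823% and 0.737% of all), and here GRMZM2G038153_T01 took the place of AC217050.4_FGT007. With salt, 8 were called as higher in PR-salt than in CR-salt and 0 as lower (0.826% and 0.722% of all), and 6 as higher in PR-salt than in SR-salt and 0 as lower (0.467% and 0.773% of all). Fisher's exact test called 5, 5, 6 and 6 in the same order, which is 6 where the Audic-Claverie test called 8. Of all transcripts it called 806, 609, 590 and 486. With an assumed coefficient of variation of 0.2 between libraries (edgeR exact test) the numbers of members called were 2, 2, 4 and 4 in the same order. That test called 245 of 40793, 172 of 40709, 154 of 40576 and 100 of 40873 transcripts. The counts of members include GRMZM2G028306_T01, which was selected on PR reads, and the other macrocarpene synthase transcripts. Without those 3 transcripts, 3, 3, 5 and 3 of the other 10 members were called by the study's criteria. The members that were not called did not all share the direction. GRMZM2G127336_T01 had 2 reads in PR-salt against 8 in CR-salt, GRMZM2G465812_T01 had 0 in PR against 1 in SR, and AC205502.4_FGT004 had a log2 ratio of -0.04 in PR against SR. Markers of dividing cells differed between the libraries too. The 12 B-type cyclin transcripts took 62.6 RPM in PR and 77.3 RPM in PR-salt, beside 93.3 to 114 RPM in the CR and SR libraries. The 26 MCM transcripts were highest in PR (1519 RPM) and lowest in PR-salt (1198 RPM). Light-harvesting proteins, markers of green tissue, were lowest in the crown root. Their 21 transcripts, of which 4 had at least 20 reads in total and 7 to 14 were at 0 per library, took 27.5 RPM in CR and 58.8 RPM in CR-salt, and 71.2 to 95.4 RPM in the PR and SR libraries, and the part of these markers in the result was not tested.

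For members whose first entry is not macrocarpene synthase, the tests of these comparisons are given. AC217050.4_FGT007 was 3.53-fold higher in PR than in CR (log2 interval 1.08 to 2.61, FDR 3.07e-06 in the exact Audic-Claverie test) and 2.39-fold higher in PR-salt than in CR-salt (FDR 0.000237 in the same exact test). Against SR its log2 ratio was 0.68 (0.10 to 1.27), which was not called. GRMZM2G451187_T01 was not called in PR against CR (log2 ratio 0.82, 0.29 to 1.37) or in PR against SR (0.29, -0.19 to 0.78). With salt it was higher than in CR-salt by 1.80 on the log2 scale (1.28 to 2.35) and than in SR-salt by 1.16 (0.72 to 1.62), and both were called. GRMZM2G038153_T01 was 3.99-fold higher in PR than in SR (FDR 0.000218 in the exact Audic-Claverie test), and its log2 ratio of 0.72 in PR-salt against SR-salt was not called.

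GRMZM2G010356_T01 and GRMZM2G319445_T01 had the widest gaps among members with reads in every library when salt was present. For GRMZM2G010356_T01 the log2 ratio was 3.68 (2.24 to 5.61) in PR-salt against CR-salt and 3.37 (2.05 to 5.04) against SR-salt. For GRMZM2G319445_T01 it was 2.25 (1.06 to 3.67) and 4.06 (2.10 to 7.16). In CR against SR and in CR-salt against SR-salt, 0 of the 13 members were called, where 0.523% and 0.436% of all transcripts were. By the unadjusted exact Audic-Claverie test 1 and 3 members, respectively, had a p under 0.05. As the share of all transcripts under that limit was not computed, nothing is read from these counts. Fisher's exact test called 0 members in both.

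**Figure D4:**
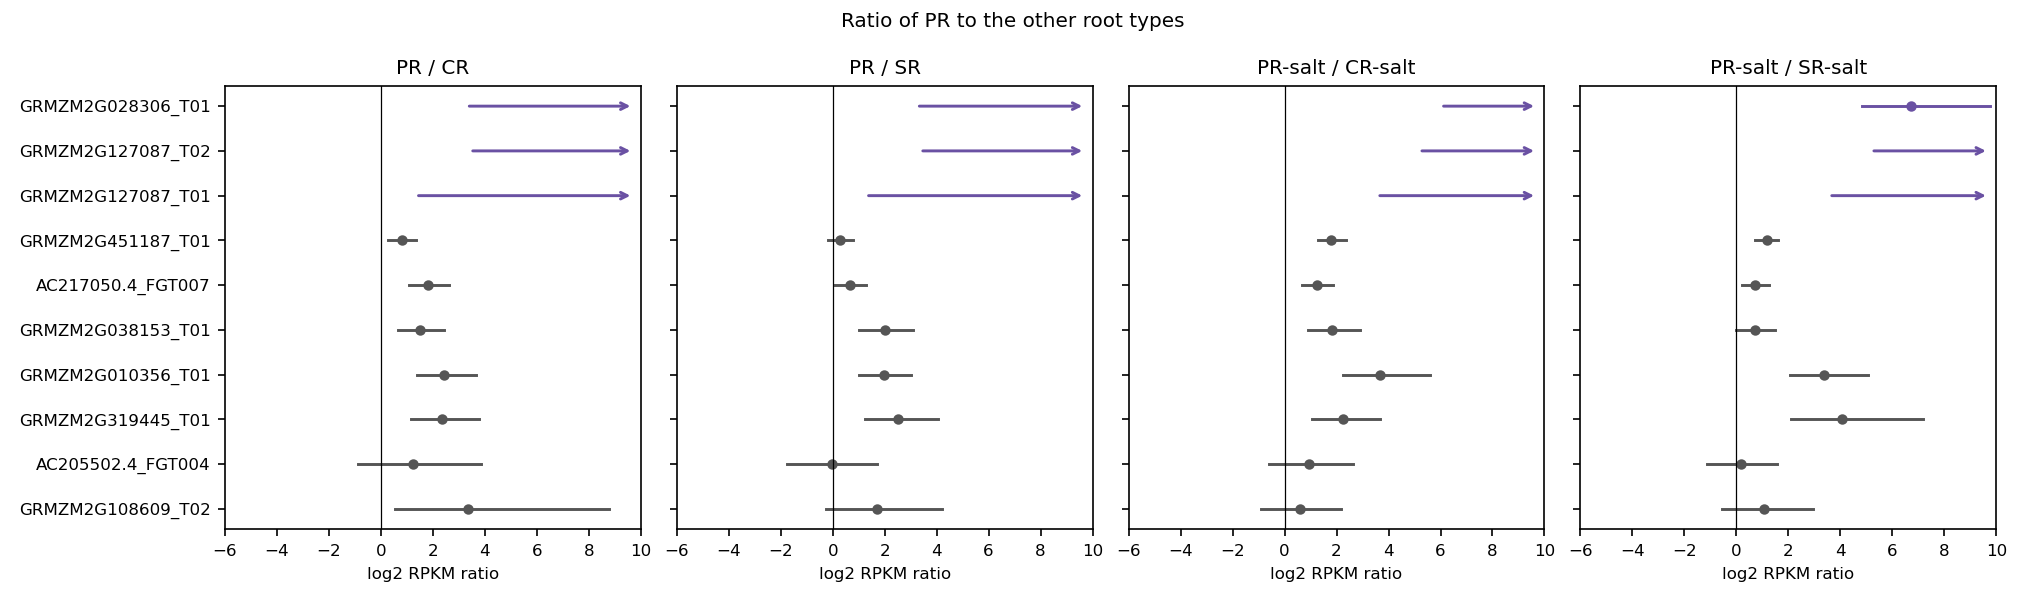
Log2 ratio of RPKM (x axis) in PR to that in CR or SR, without salt (left pair of panels) and with salt (right pair), for the 10 members with at least 20 reads in total (y axis), with exact 95% intervals of the reads as lines. Arrows start at the ratio to the floor of 3 reads where the other library had 0 reads, macrocarpene synthase transcripts are purple, and apart from AC205502.4_FGT004 in PR against SR (-0.04) the points lie to the right of 0.

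A fit across all 6 libraries with root type and salt as terms (edgeR quasi-likelihood test, 2 residual degrees of freedom) could be made for 4 members, since it took those that reached 10 reads in 3 or more libraries. That filter leaves out transcripts found in the primary root libraries alone, and so it held none of the macrocarpene synthase transcripts. In the fit the untreated and salt-treated library of a root type stood as its 2 libraries, which are not replicates of a condition. The root type effect passed an FDR of 0.05 for all 4, where 6.86% of the 18444 transcripts passed. The FDR was 0.00752 for AC217050.4_FGT007, 0.0188 for GRMZM2G451187_T01 and 0.0304 for GRMZM2G038153_T01 (edgeR). With DESeq2, and with edgeR without the CR pair of libraries, the root type effect passed for 1, GRMZM2G010356_T01, for which no p is given since its first entry is macrocarpene synthase. Without the PR pair it passed for 0 of 3 members fitted, and without the SR pair for 3 of 3. Over both treatments GRMZM2G010356_T01 was higher in PR by 2.94 on the log2 scale against CR and by 2.54 against SR. The other 3 were higher in PR than in CR by 1.33 to 1.65 (log2), and none of them passed against SR. Of all transcripts, 3.56% passed as higher in PR than in CR and 2.03% as higher in PR than in SR. SR against CR passed for none of the 4, where 0.77% of all passed as higher in SR. The average salt effect passed for 0 of the 4 with edgeR and with DESeq2, and 0 had an unadjusted p under 0.05, where 0.613% of all transcripts passed with edgeR.

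The genes that supply the substrates of terpene synthases are given beside the family. Plants make the precursors by the plastid MEP pathway and the cytosolic mevalonate pathway, and prenyl diphosphate synthases join them into geranyl, farnesyl and geranylgeranyl diphosphate. The annotation held 20 MEP pathway, 24 mevalonate pathway and 19 prenyl diphosphate synthase and isomerase transcripts, 8 diterpene synthases, and 4 transcripts for squalene synthase and squalene monooxygenase, of the sterol branch that draws on the same farnesyl diphosphate. Of these 75 transcripts, 38 had at least 20 reads in PR and PR-salt, and 0 were called as higher and 1 as lower in PR-salt against PR (0.0318% and 0.487% of all transcripts). In CR-salt against CR 1 was higher and 0 lower (0.135% and 0.234% of all transcripts), and in SR-salt against SR 0 were higher and 1 lower (0.0814% and 0.311% of all). In the primary root, the most abundant transcript of the prenyl diphosphate list, the isomerase GRMZM2G032163_T01, gave 858 reads untreated and 919 with salt, a log2 ratio of 0.04 (-0.10 to 0.18). That of the mevalonate list, the hydroxymethylglutaryl-CoA synthase AC199782.5_FGT002, gave 414 and 468 reads (0.12, -0.08 to 0.31). That of the MEP list, GRMZM2G137409_T01 (Hds1), gave 434 and 399 reads (-0.18, -0.38 to 0.02). These abundant precursor genes differed by less than the threshold, and so did the squalene monooxygenase GRMZM2G105787_T01, with 464 and 527 reads (0.13, -0.06 to 0.31).

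Between root types, 4 of the 75 were called as higher and 0 as lower in PR against CR, and likewise 4 and 0 in PR against SR, where 1.29% and 0.823% of all transcripts were called as higher. Of the 8 diterpene synthases, 3 were higher in PR than in CR and 2 higher in PR than in SR. A higher level in the primary root was thus also found for some diterpene synthases, and whether it differed from that of the family was not tested. It was not found for the most abundant of them, GRMZM2G068808_T02. Untreated, its RPKM was 114 (PR), 116 (CR) and 119 (SR). With salt its RPKM was 125 (PR-salt), 96.4 (CR-salt) and 137 (SR-salt).

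The 3 calls under salt fell on 3 different genes. GRMZM2G137151_T01 (dxs1), of the entry step of the MEP pathway, rose in the crown root from 81 to 158 reads (log2 ratio 1.01, 0.61 to 1.41, FDR 1.93e-05 in the exact Audic-Claverie test). That ratio lay at the threshold, and with TMM or DESeq2 scaling, added after seeing the data, it was 0.98 in each case and was not called. GRMZM2G044481_T01 (an2), an ent-copalyl diphosphate synthase of maize on the route to the kauralexins, diterpenoid phytoalexins, fell in the primary root from 57 to 19 reads (log2 ratio -1.64, -2.48 to -0.87). It gave 2 to 7 reads in each of the other libraries. GRMZM2G016922_T01, annotated as an ent-kaurene synthase, fell in the seminal root from 158 to 66 reads (log2 ratio -1.29, -1.72 to -0.86, FDR 4.09e-08 in the exact Audic-Claverie test), beside 172 reads in PR and 237 in PR-salt. The diterpene synthase with the most reads, GRMZM2G068808_T02, gave 687 reads in PR and 784 with salt (log2 ratio 0.13, -0.02 to 0.28).

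The 5 transcripts outside the family whose RPKM followed GRMZM2G028306_T01 most closely over the 6 libraries had Pearson correlations of 0.97 to 0.99 on the log2(RPKM + 1) scale. They were GRMZM2G153176_T01, GRMZM2G049318_T01, GRMZM2G064814_T01 (annotated as a translation initiation factor eIF-2B subunit), GRMZM2G358827_T01 and GRMZM2G402631_T01. GRMZM2G402631_T01 gave 86 reads in PR, 311 in PR-salt and 1 to 6 in the other libraries, while GRMZM2G153176_T01 gave 38 and 65 reads in the primary root and 18 to 23 elsewhere. Likeness by Pearson correlation thus covered steps of very different size. Among 3025 transcripts compared over 6 points that share these libraries, 13 had a correlation of at least 0.95. Within the family the correlation with GRMZM2G028306_T01 was 0.99 for both transcripts of GRMZM2G127087 and 0.61 to 0.92 for the other 7 members with at least 20 reads. These values describe 6 libraries and carry no test.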

How the data were processed

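After quality filtering, the authors placed reads on the maize B73 genome with SOAP, used BLAST to tie them to genes, and deposited, for every transcript, the count of uniquely aligned reads, the RPKM and the percent of the transcript covered. The count is not normalized. The authors' RPKM divides it by coding length (99.96% of lengths are multiples of 3) and by the counted reads of the library, and differed from a recomputed RPKM by at most 1.74e-06. A dash was read as 0.

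Members and lists were chosen with earlier results of these data known. Members with at least 20 reads in total are described singly. In the lists, the transcript with the most reads and those called under salt are named. The 5 transcripts most like GRMZM2G028306_T01 were sought among those with at least 100 reads and a log2 range of at least 1.

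The Audic-Claverie test was exact and two-sided, with counted reads as library totals, Benjamini-Hochberg adjustment over every transcript read in either of the libraries, and an RPKM of 0 set at 0.01. Tests were fitted on the whole table, and no p of a comparison with a PR library is given for members with K15797 as first entry. Ratios carry exact 95% Clopper-Pearson intervals, and the floor was 3 reads. edgeR 4.0.16 and DESeq2 1.42.0 were run in R 4.3.3. Other steps used Python 3.11.15 (scipy 1.17.1, numpy 2.4.6, pandas 2.3.3) and figures matplotlib 3.10.9.

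On simulated data with 200 changed transcripts, the Audic-Claverie test for CR-salt against CR recovered 195 among 39640 transcripts with 0 other calls, the test of the difference between CR and SR 179 among 22179 with 0, and the edgeR salt effect 200 among 18552 with 9. The changed transcripts were abundant ones with a large change, so the recovery does not hold for members with few reads. Counts for the Audic-Claverie test and the difference test were drawn with counting error only, so variation between libraries was not covered. Alternatives were other scalings, read filters and FDR limits, Fisher's exact test, an assumed variation between libraries, DESeq2, and fits without each root type.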

Additional observations from a re-analysis of the deposited data

How the results depend on the processing

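Where the reported number of members called was above 0, it stayed within 1.5 times under 32 of 38 alternatives. Among these counts are those of PR-salt against PR, which was used to choose GRMZM2G028306. The counts of PR and PR-salt against other root types include the macrocarpene synthase transcripts. Their stability therefore describes the processing and is no test of the members. With an assumed biological coefficient of variation (BCV) of 0.2 in an edgeR exact test, the members called fell to 1 in PR-salt against PR, to 2 in PR against CR, to 2 in PR against SR and to 4 in PR-salt against CR-salt. Of all transcripts, 39, 245, 172 and 154 were called in the same order. Without a filter on low counts, the edgeR fit called 3 members for the average salt effect and 8 for root type. Of all 48312 transcripts it called 795 and 2513. The 3 were the macrocarpene synthase transcripts, which were also among the 8. Their reads lay almost only in PR and PR-salt, so their average salt effect restates the comparison used for the choice and is no test. With DESeq2 the root type effect was called for 1 member and for 518 of 18444 transcripts. Root type fits that left out 1 root type were not among the 38 alternatives. They called 0 of 3 members fitted without PR, 1 of 4 without CR and 3 of 3 without SR. Of all transcripts, 775, 782 and 979 were called in the same order. The average salt effect was called for 0 members in each fit that left out 1 root type. The 67 log2 ratios of single members moved by at most 0.04 under TMM or DESeq2 scaling, with no change of sign or call. Of the 5 transcripts most like GRMZM2G028306_T01, 2 remained with a pseudocount of 0.1 and 1 by rank correlation, where 83 transcripts shared the highest value. No paired analysis by replicate number was possible because there was 1 library per condition and the labels number no replicates. In the edgeR fit root type stood as the block. The 3 members with fewer than 20 reads in total are given by their reads.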

Other observations

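Annotation groups near the family, chosen after its values had been seen, are given as values. A terpene synthase outside the rule, GRMZM2G049538_T01, is annotated as an acyclic sesquiterpene synthase and listed in RefSeq under the names tps1 and eks1. Untreated it gave 53 (PR), 15 (CR) and 38 (SR) reads, and with salt 56, 8 and 12. Its log2 salt ratio was 0.02 (-0.55 to 0.59) for the primary root, -0.86 (-2.31 to 0.47) for the crown root and -1.69 (-2.76 to -0.72) for the seminal root, and none of these was called.

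P450 enzymes of the CYP71Z group oxidize sesquiterpenes in the zealexin pathway of maize, and 19 transcripts carried a KEGG entry of subfamily 71Z, of which 11 had at least 20 reads. Both transcripts named below carried the entry for polypeptide 6, an ent-isokaurene C2-hydroxylase, and their part in the zealexin pathway was not tested. Summed over the 19, the untreated libraries took 95.4 RPM (PR), 85.7 RPM (CR) and 138 RPM (SR), and those with salt 81.1, 91.6 and 114 RPM. The transcript with the most reads, GRMZM2G171118_T01, gave 49 (PR), 90 (CR) and 133 (SR) reads untreated and 33, 102 and 124 with salt. It was thus lowest in the primary root. Of the 19, 1 was called as lower and 0 as higher in PR-salt against PR (0.487% and 0.0318% of all transcripts). The DTG was GRMZM2G122654_T01, which fell from 25 reads to 1 (log2 ratio -4.70, -10.06 to -2.09). It gave 0 reads in CR, CR-salt and SR and 1 in SR-salt.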
